A study of Mus musculus with 2 samples.

Results

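Genes of the contractile apparatus were examined in 2 samples of Flk-1-positive mouse cells, 1 carrying AU019823 disrupted by a gene trap on both alleles and 1 from revertant cells. The set holds every gene whose annotated symbol is that of a troponin subunit, a numbered myosin heavy or light chain, a tropomyosin, a calponin, a myosin-binding protein C, an actin or a transgelin. Of 16444 named genes on the array, 40 met this rule, with 44 probes. The probe with the highest mean spot signal stood for each gene. RefSeq lists 52 coding genes under the same symbols, and the 12 without a probe of that symbol include the cardiac actin gene Actc1, the cytoplasmic actin gene Actg1 and the smooth muscle light chain gene Myl9. Tnni3k falls under the rule by its name, although it encodes a kinase that binds troponin I.

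The gene-trapped sample came from embryonic stem cells with both AU019823 alleles interrupted (300000 cells for RNA), and the revertant sample from cells that the labels call nearly wild type (350000 cells). Both had been grown on OP9 cells, a mouse bone marrow stromal line, and sorted for Flk-1, the product of Kdr and a surface marker of early mesoderm. The sample descriptions give day 4.5, and the treatment protocol gives 4 days of coculture. The labels carry a different clone-like code for each sample with no explanation, so that genotype and any clone difference cannot be told apart. With 1 array per group there is no replicate check, no p-value and no standard error, and every difference compares these 2 libraries.

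Muscle contracts when myosin heads of the thick filament pull on actin in the thin filament. In striated muscle, calcium binding to troponin C moves troponin I, troponin T and tropomyosin, which frees the actin sites for myosin. In smooth muscle the trigger is phosphorylation of a myosin light chain, with calponin and transgelin bound to actin. Nonmuscle myosins, cytoplasmic actin and several tropomyosins serve adhesion, movement and division in most cells. In the mouse embryo the first contractile genes appear as mesoderm forms the heart, where smooth muscle actin and transgelin are also expressed for a time.

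The scanner read 27456 spots per array, and a gene was taken as above background where its spot exceeded the mean of 2736 blank spots by more than 2 SD. That limit was 22.3 on the gene-trapped array and 24.99 on the revertant array. The median probe signal was 38.6 on the gene-trapped array and 47.5 on the revertant array. Positive control spots, which measure printing and scanning but no difference between cultures, had SDs of the log2 ratio of 0.107 and 0.0988. AU019823 itself had raw signals of 297 in gene-trapped and 486 in revertant cells and a normalized log2 difference of -0.39. The place of its probe relative to the trap is not known here, so this value does not check the labels. Of 13 early mesoderm markers 12 passed the background limit on both arrays. Of these 12, 2 were higher by 2-fold or more, against 0.342% of all genes above background, and 0 were lower by that much. Above 0 lay 7 of the 12, against 53.3% of all genes above background. The median log2 difference of the 12 was 0.18, against 0.01 for all genes above background. The 4 with the largest differences were Mixl1 (1.99), Etv2 (1.30), T (0.76) and Kdr (-0.65). Kdr had raw signals of 537 in gene-trapped and 1025 in revertant cells, and its difference was -2.04 with the local background subtracted. Of 7 skeletal muscle markers 5 were above background, and none reached a 2-fold difference on the normalized scale. In the authors' deposited table, which was processed in another way, 2 of the 5 were at least 2-fold lower, against 4.02% of all genes. They were Ckm (-1.06) and Des (-1.01), the spots of Ckm lying near background (gene-trapped 22.6, revertant 29.1).

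Cardiac troponin T, slow skeletal troponin I, fast skeletal troponin T and smooth muscle actin were the contractile genes lower in gene-trapped cells by 2-fold or more. Of the 40 members 34 passed the background limit on both arrays, and among these 4 were lower and 0 higher by 2-fold or more. Of the 13753 named genes that passed the limit in this way, 1.08% were at least 2-fold lower and 0.342% at least 2-fold higher. Subtraction of the local background ended the calls of Tnni1 (0.14) and Tnnt3 (-0.04), and 75th percentile scaling ended that of Tnnt3 (-0.96). With the subtraction 3 members were lower (Tnnt2, Acta2 and Cnn2) and 3 higher (Myl3, Tpm1 and Tpm3), against 1.34% of all genes lower and 1.99% higher. Genes of high signal passed 2-fold more often: in the brightest of 5 equal classes, 2.73% were at least 2-fold lower, and 15 of the 34 members lay in that class. In each of the 2 dimmest classes, which held 5 and 4 of the members, 0% were. The offset of 50 added in processing draws the differences of dim genes toward 0, so their lack of a call carries little weight. The median log2 difference of the 34 members was -0.03, against 0.01 for all genes, and 21 of the 34 (61.8%) lay below 0, against 46.6% of all genes. In the bulk RNA of a sorted population, fewer cells of a type and less RNA per cell cannot be told apart.

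**Figure D1:**
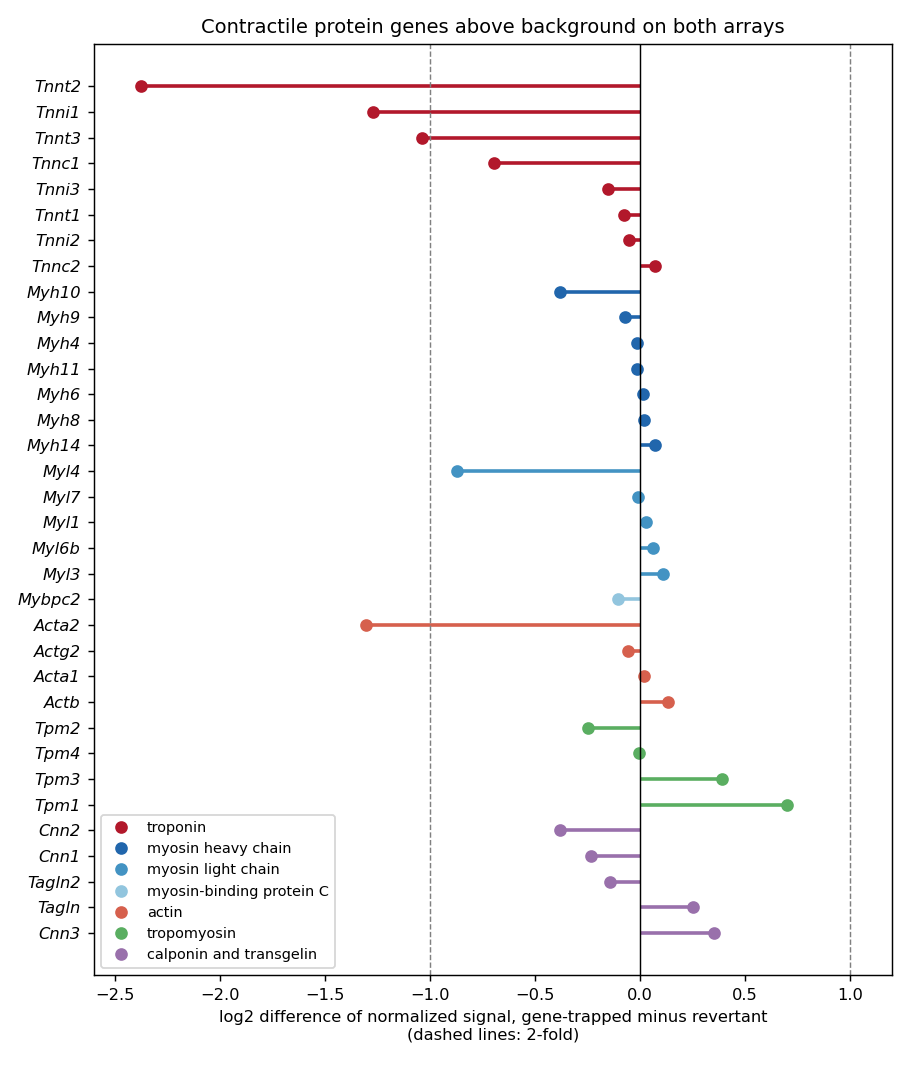
Log2 difference of normalized signal (gene-trapped minus revertant, x axis) for the 34 contractile genes above background on both arrays, grouped by family and coloured by it. Dashed lines mark 2-fold; Tnnt2, Tnni1, Tnnt3 and Acta2 lie beyond the lower line, and no gene lies beyond the upper one.

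Promoters are shown for 3 of the 4 genes that passed 2-fold and for Myl7, an atrial light chain gene that did not, so that their letters can be compared. They run from 250 bases before to 50 bases after a transcription start in RefSeq (GRCm38.p6), 5′ to 3′ on the gene's strand. Where several starts are listed, the first in the direction of transcription was used. Capitals mark exact matches on either strand to the CArG box (bound by serum response factor), the MEF2 box, the MCAT element CATTCC (bound by TEAD factors), the TATA box TATAAA or the GATA element AGATAA, and no marked match overlaps another.
Tnnt2 (chr1:135836084-135836383, plus strand): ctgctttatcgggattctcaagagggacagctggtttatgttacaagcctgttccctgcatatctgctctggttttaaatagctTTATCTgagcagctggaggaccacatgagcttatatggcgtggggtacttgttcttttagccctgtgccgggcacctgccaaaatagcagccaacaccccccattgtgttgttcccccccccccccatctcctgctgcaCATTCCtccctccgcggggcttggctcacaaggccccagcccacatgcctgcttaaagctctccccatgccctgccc
Tnni1 (chr1:135799171-135799470, plus strand): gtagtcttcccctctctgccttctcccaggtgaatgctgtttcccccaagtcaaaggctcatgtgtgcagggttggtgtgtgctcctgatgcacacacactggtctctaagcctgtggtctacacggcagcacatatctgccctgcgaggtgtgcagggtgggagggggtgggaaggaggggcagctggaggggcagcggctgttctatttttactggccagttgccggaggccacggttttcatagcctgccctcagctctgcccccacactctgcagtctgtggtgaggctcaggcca
Acta2 (chr19:34255324-34255623, minus strand): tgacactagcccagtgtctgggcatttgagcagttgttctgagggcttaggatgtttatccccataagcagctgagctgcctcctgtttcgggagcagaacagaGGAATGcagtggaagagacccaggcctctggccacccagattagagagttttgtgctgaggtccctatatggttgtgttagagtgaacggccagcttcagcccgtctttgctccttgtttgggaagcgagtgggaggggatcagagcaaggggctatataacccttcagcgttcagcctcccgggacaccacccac
Myl7 (chr11:5898733-5899032, minus strand): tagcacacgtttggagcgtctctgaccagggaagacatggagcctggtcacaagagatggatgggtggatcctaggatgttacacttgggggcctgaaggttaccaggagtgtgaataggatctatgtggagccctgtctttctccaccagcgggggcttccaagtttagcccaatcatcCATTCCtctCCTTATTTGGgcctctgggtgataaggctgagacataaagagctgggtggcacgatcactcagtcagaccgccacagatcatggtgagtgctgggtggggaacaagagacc

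With the start as position 1 and no position 0, the window of Tnnt2 holds an MCAT element from position -27 and a GATA element from position -166. That of Acta2 holds an MCAT element from position -146, and that of Tnni1 holds no match. Myl7 has a CArG box from position -61 and an MCAT element from position -70. Promoters were found for 34 of the 40 genes, 39 windows in all, and none is given here for Actb, Actg2, Myh11, Tagln, Tnni2 or Tnnt3. Of these 39 windows 16 (41.0%) hold an MCAT element, against 14.7% of 32851 promoters of the same length. A CArG box is in 5 windows (12.8%), those of Acta1, Cnn2, Myh4, Myl3 and Myl7, against 1.63% of all promoters. A MEF2 box is in 5 windows (12.8%, against 3.19%), a TATA box in 10 (25.6%, against 13.6%) and the GATA element in 3 (7.69%, against 11.2%). Only CArG boxes with nothing but A or T between CC and GG were counted. Stretches with a G or C there were not, such as ccctatatgg and ccttgtttgg in the Acta2 window. The absence of a marked match is therefore not the absence of a binding site. Genes of 1 family share ancestry, and a match is a description of letters in this window only.

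Troponins held 3 of the 4 lower genes, of which only Tnnt2 stayed past 2-fold with the local background subtracted (-1.47, with Tnni1 at 0.14 and Tnnt3 at -0.04). All 8 troponin genes passed the background limit on each array, and 7 of the 8 lay below 0, against 46.6% of all genes, with a median log2 difference of -0.43. With the local background subtracted 5 of the 8 lay below 0 and the median was -0.04, and under 75th percentile scaling, which moves the median of all genes to 0.15, 5 of the 8 lay below 0 and the median was -0.38. Tnnt2, the cardiac troponin T that ties the complex to tropomyosin, had a raw signal of 123 in gene-trapped cells, against 932 in revertant cells. Its normalized log2 signal was 7.43 in gene-trapped and 9.80 in revertant cells, a difference of -2.37 or 5.18-fold lower, which ranked 3 from the lowest among the 13753 genes. Tnni1, the slow skeletal troponin I that is also the inhibitory subunit of the embryonic heart in mouse, had raw signals of 87.1 in gene-trapped and 316 in revertant cells. On the normalized log2 scale it had 7.03 in gene-trapped and 8.30 in revertant cells, a difference of -1.27 or 2.41-fold lower, at rank 63. Tnnt3, the fast skeletal troponin T, had raw signals of 35.8 in gene-trapped and 130 in revertant cells, a normalized log2 difference of -1.04 or 2.05-fold lower. Its gene-trapped spot lay close to the background limit of 22.3, and with an offset of 16 in place of 50 its log2 difference was -1.59. In the authors' deposited table, which differs in background, scaling and normalization together, Tnnt3 had 13.4 in gene-trapped and 70.6 in revertant cells, a log2 difference of -2.39.

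Tnnc1, the calcium-binding subunit shared by heart and slow muscle, followed the same direction without reaching 2-fold. It had raw signals of 225 in gene-trapped and 479 in revertant cells and a normalized log2 difference of -0.70 (1.62-fold lower). Tnni3, the troponin I of the adult heart, was dim, at 43.7 in gene-trapped and 64.3 in revertant cells, with a log2 difference of -0.15. Tnnt1, slow skeletal troponin T, had raw signals of 30.0 in gene-trapped and 39.9 in revertant cells and a log2 difference of -0.08. The fast skeletal subunits Tnni2 (gene-trapped 29.8, revertant 38.2) and Tnnc2 (gene-trapped 26.1, revertant 27.2) had log2 differences of -0.05 and 0.07. All 4 of these dim genes stood within 41.8 intensity units of the blank mean on both arrays, and the difference of Tnni3 was the largest of theirs in size.

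Troponin I and T genes lie in neighbouring pairs in the mouse genome, and 1 pair had both genes past 2-fold. Tnni1 and Tnnt2, on chromosome 1 with 1 gene between them in RefSeq, were the members of that pair, but Tnni1 had 0.14 once the local background was taken off. Lad1, the gene between them, had a log2 difference of -0.10 from raw signals of 26.0 in gene-trapped and 35.5 in revertant cells, and Phlda3, the gene beside Tnni1, had 1.74. Of the pair Tnni2 and Tnnt3 on chromosome 7 only Tnnt3 passed 2-fold, and Lsp1 between them had -0.18. In the pair Tnnt1 and Tnni3, also on chromosome 7 and adjacent, neither gene did.

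**Figure D2:**
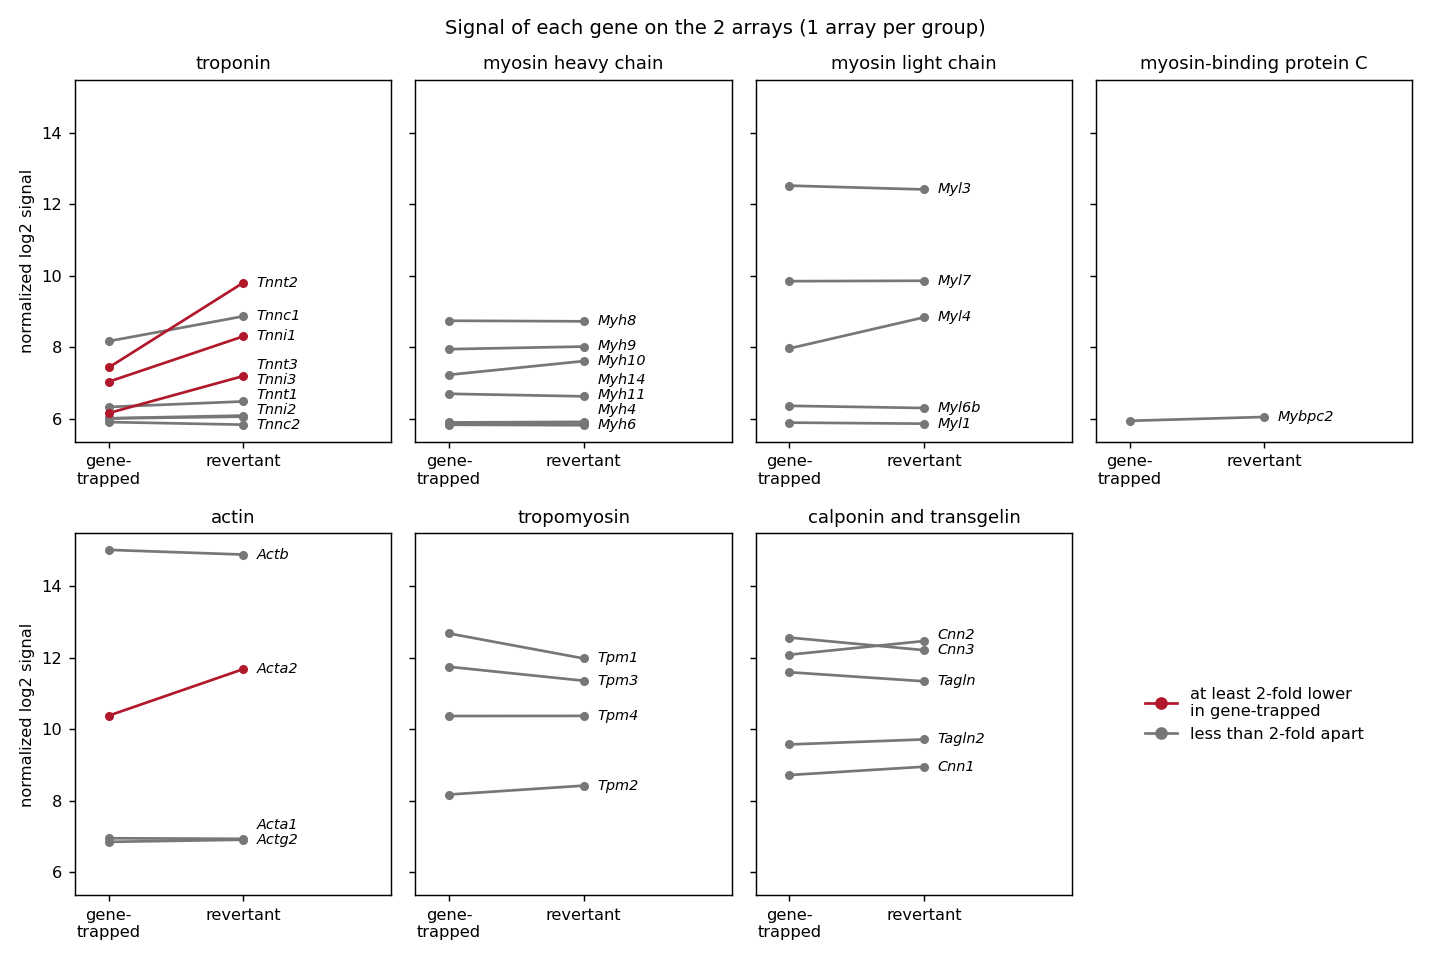
Normalized log2 signal of each of the 34 genes on the gene-trapped array (left of each panel) and the revertant array (right), 1 panel per family and 1 line per gene, with 1 array per group. Red lines are the 4 genes lower by 2-fold or more in gene-trapped cells: 3 troponins, with Tnnt2 at 7.43 in gene-trapped and 9.80 in revertant cells, and smooth muscle actin.

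Myosin heavy chains, the motors of the thick filament, showed no 2-fold difference. Of 10 genes 7 passed the background limit on both arrays, with log2 differences from -0.38 to 0.07. The cardiac genes gave little signal: Myh6, the alpha chain, had 23.6 in gene-trapped and 26.4 in revertant cells, just over the limits, and Myh7, the beta chain, had 20.5 in gene-trapped and 23.9 in revertant cells, below both. Fast skeletal Myh1 (gene-trapped 21.1, revertant 23.9) and embryonic skeletal Myh3 (gene-trapped 21.7, revertant 23.6) were not above background on either array. Myh4 (gene-trapped 25.1, revertant 30.0) and the smooth muscle gene Myh11 (gene-trapped 25.8, revertant 30.8) lay just over the limits. At signals like those of Myh4, Myh6 and Myh11 the offset of 50 leaves little room for a 2-fold difference.

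Perinatal skeletal Myh8 was above background by 1 of its 2 probes only. The chosen probe gave raw signals of 355 in gene-trapped and 430 in revertant cells with a log2 difference of 0.02, whereas the other gave 20.8 in gene-trapped and 22.4 in revertant cells and was not above background. Which of them reports Myh8 transcripts was not resolved here. Among nonmuscle heavy chains, Myh10 had 102 in gene-trapped and 184 in revertant cells, a log2 difference of -0.38. Myh9 (gene-trapped 189, revertant 255) had -0.07 and Myh14 (gene-trapped 63.3, revertant 75.1) had 0.07.

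**Figure D3:**
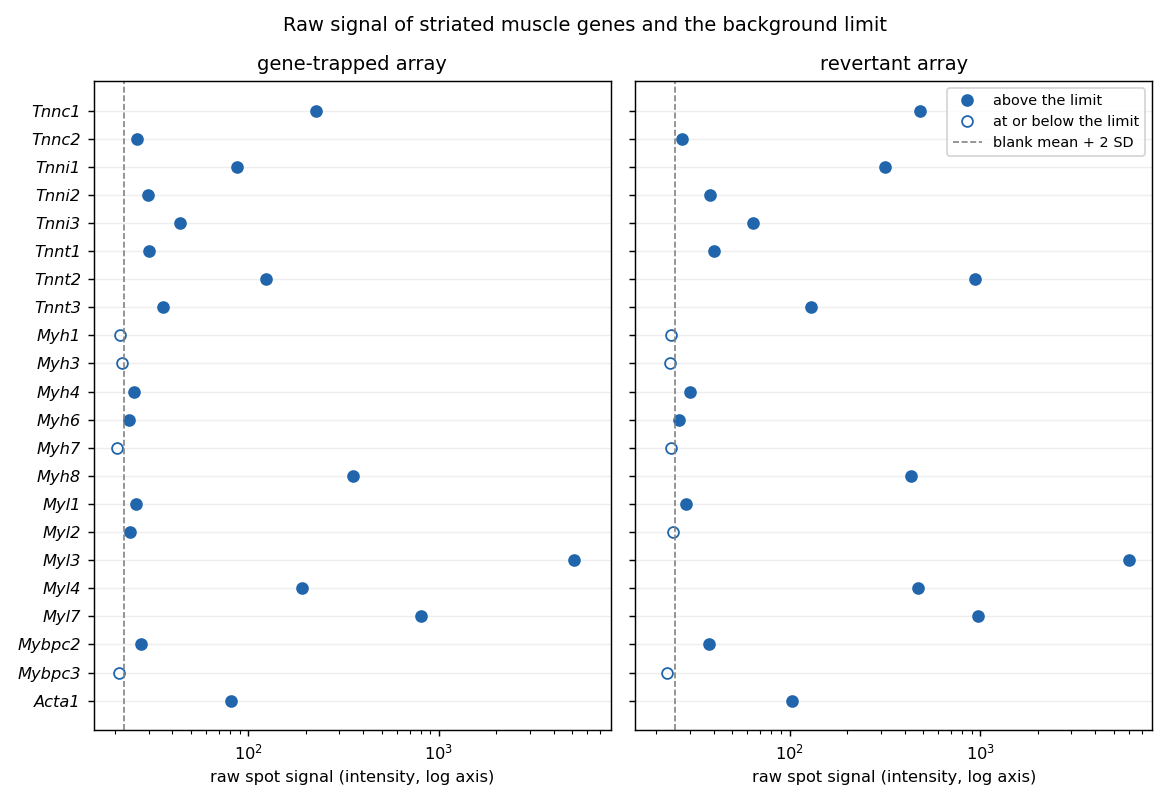
Raw spot signal (intensity, log axis) of the 22 cardiac and skeletal muscle genes on the gene-trapped array (left panel) and the revertant array (right panel), with the background limit dashed. Filled points exceed the limit; Myh1, Myh3, Myh7 and Mybpc3 do so on neither array and Myl2 on the gene-trapped array only, while Myl3, Myl7 and Myh8 lie far above it on both.

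Of the light chains of the heart, Myl3, Myl4 and Myl7 were above background on both arrays and none reached 2-fold on the normalized scale, while Myl3 had 3.05 with the local background subtracted. At Myl3 that background was 90.1% of the spot on the gene-trapped array and 101% on the revertant array. The value of 3.05 thus rests on a revertant spot that its local background exceeded. Myl4, the essential light chain of atrium and embryonic heart, had raw signals of 192 in gene-trapped and 469 in revertant cells and a normalized log2 difference of -0.87 (1.83-fold lower). It passed 2-fold under median scaling (-1.02) and in the authors' deposited table (2.01-fold lower), where 4.02% of genes were at least 2-fold lower. Myl7, the regulatory light chain of the atrium and an early marker of heart muscle, had 808 in gene-trapped and 975 in revertant cells, a log2 difference of -0.01. Myl3, the essential chain of ventricle and slow muscle, had 5107 in gene-trapped and 6008 in revertant cells, a difference of 0.11. Ventricular Myl2 was above background on the gene-trapped array only, with 24.0 in gene-trapped and 24.3 in revertant cells. Its raw signal was therefore not higher there, and the bound, on normalized signal, is at least 1.04-fold higher. Fast skeletal Myl1 (gene-trapped 25.6, revertant 28.4) and Myl6b (gene-trapped 45.2, revertant 52.0), a light chain of slow and nonmuscle myosin, had differences of 0.03 and 0.06. Of the myosin-binding proteins C, Mybpc2 (gene-trapped 27.4, revertant 37.7) had -0.11, and cardiac Mybpc3 (gene-trapped 21.0, revertant 22.7) was not above background on either array.

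Actins gave 1 lower gene of 4. Acta2, smooth muscle alpha actin, had a raw signal of 1195 in gene-trapped cells and 3603 in revertant cells. Its normalized log2 signal was 10.38 in gene-trapped and 11.68 in revertant cells, a difference of -1.30 or 2.47-fold lower, at rank 57 from the lowest. Its difference was past 2-fold under all 11 alternatives tried, from -1.43 to -1.23, and that of Tnnt2 was past 2-fold under all 11 as well. The stricter filter, no filter and averaging over probes could not alter either value. Both genes have 1 probe and lay far above the limits. The other smooth muscle actin, Actg2, had 73.5 in gene-trapped and 99.7 in revertant cells and a log2 difference of -0.06. Skeletal Acta1 (gene-trapped 80.9, revertant 102) had 0.02. Both probes of cytoplasmic Actb were near 0 on the normalized scale, with log2 differences of 0.13 (gene-trapped 27804, revertant 34413) and 0.03 (gene-trapped 7175, revertant 9261), although the brighter one had -0.49 with the local background subtracted. Actin genes are close to identical in their coding parts, and probe sequences were not used here, so signal from a related actin at any of these probes was not examined.

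None of the other smooth muscle genes, calponins or transgelins reached 2-fold on the normalized scale. Tagln, the transgelin of smooth muscle, had 2706 in gene-trapped and 2840 in revertant cells and a normalized log2 difference of 0.25. Cnn1, the calponin of smooth muscle, had 350 in gene-trapped and 511 in revertant cells, a difference of -0.23. Cnn2 (gene-trapped 3936, revertant 6337) had -0.38, Cnn3 (gene-trapped 5259, revertant 5227) 0.35 and Tagln2 (gene-trapped 668, revertant 877) -0.14, all 3 being expressed in many tissues. With the local background subtracted Cnn2 was past 2-fold at -1.85, Cnn1 had -0.76, Tagln2 -0.77 and Tagln 0.56. Of the 5 smooth muscle genes in the set, 1 was at least 2-fold lower and the median was -0.06.

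Tropomyosins, which lie along the actin filament, held the largest positive difference of the set on the normalized scale. Tpm1 had raw signals of 5778 in gene-trapped and 4446 in revertant cells and a normalized log2 difference of 0.70 (1.62-fold higher). With the local background subtracted Tpm1 had 1.15 and Tpm3 1.502, both under Myl3. That background was 18.8% of the Tpm1 spot in gene-trapped and 55.5% in revertant cells. At the chosen Tpm3 probe it was 65.6% in gene-trapped and 90.1% in revertant cells. Tpm3 had 0.39 at the chosen probe (gene-trapped 3055, revertant 2885) and 0.28 at the other (gene-trapped 2577, revertant 2637). Tpm4 (gene-trapped 1185, revertant 1404) had -0.0038, and Tpm2 (gene-trapped 227, revertant 346) had -0.25. Each tropomyosin gene makes several muscle and nonmuscle isoforms, which these probes were not shown to separate.

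**Figure D4:**
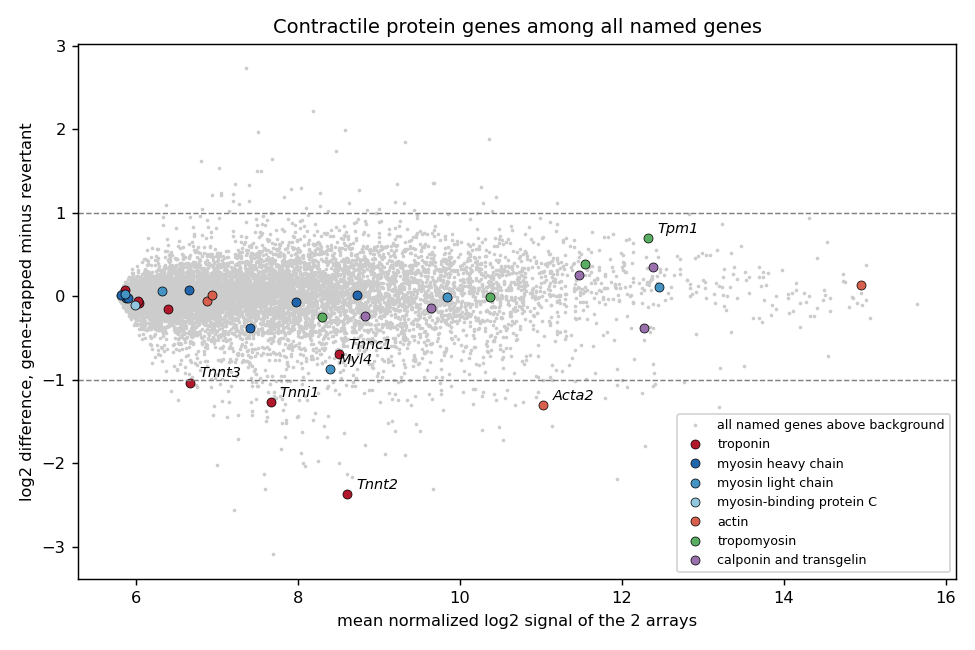
Log2 difference (gene-trapped minus revertant, y axis) against mean normalized log2 signal of both arrays (x axis) for all 13753 named genes above background (grey) and the 34 contractile genes (coloured by family). Dashed lines mark 2-fold; Tnnt2 at -2.37 lies at the lower edge of the cloud, and Tpm1 at 0.70 is the highest contractile gene.

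No listed gene of the Z-disc, titin, M-band or calcium handling passed 2-fold on the normalized scale. Of 22 Z-disc, titin and M-band genes with a probe, 13 passed the background limit on both arrays, 0 were lower or higher by 2-fold or more and the median was -0.01. Tmod1, which caps actin filaments, had -0.69 (gene-trapped 52.7, revertant 130), D830029A09Rik, named Nebl in RefSeq, had -0.63, Capza2 -0.57 and the stress-responsive gene Ankrd1 -0.42. In the authors' deposited table the value of D830029A09Rik was -1.86, with Tmod1 at -1.35 and the intermediate filament gene Des at -1.01, so that 3 of the 13 were at least 2-fold lower there, against 4.02% of all genes. Titin (Ttn), Tcap, Myom2, Myot, Myoz2, Nrap and Smpx were not above background on either array. Of 14 calcium-handling genes 9 were above background and 0 passed 2-fold, Atp2a2, the calcium pump of the heart, being lowest at -0.60. Its raw signals were 617 in gene-trapped and 1121 in revertant cells. With the local background subtracted Atp2a2 had 0.09, Tmod1 0.06 and Ankrd1 0.10. The calsequestrin gene Casq2, above background on the revertant array only, had -1.13 in the authors' deposited table.

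Regulators of muscle genes and partners of actin had no member past 2-fold on the normalized scale. Of 21 measured regulators 0 passed 2-fold and the median was 0.02. The listed regulators Mef2b, Mef2c and Nkx2-5 had no probe of that symbol and were not measured. Smarcd3, a chromatin remodelling subunit of heart progenitors, had -0.78 (gene-trapped 227, revertant 513), the heart factor Tbx20 -0.70 and Hand1 -0.44, whereas Gata6 had 0.26. Srf, which binds the CArG box, had 144 in gene-trapped and 198 in revertant cells and a log2 difference of -0.08, and Tead1, a TEAD factor, had 0.15. In the authors' deposited table, where 2.01% of genes were at least 2-fold higher, Tbx20 had -1.11 and the Srf coactivator gene Mkl2 1.99, the spots of Mkl2 lying near background (gene-trapped 28.2, revertant 25.1). Among 20 partners of actin 0 passed 2-fold and the median was -0.06. Flna had -0.53, Anln -0.49, Cfl1 0.41 and Actn1 0.29. With the local background subtracted Tmsb4x (-1.85) and Cald1 (1.58) were past 2-fold, Flna had 0.34, Anln 0.15 and Actn1 -0.11. Of the regulators in that setting Smarcd3 had -0.29, Tbx20 -0.13, Hand1 0.13, Gata6 0.38 and Tead1 -0.18.

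Markers of other cells that the sorted population could hold were also read, since Acta2 is also expressed in stroma and vessel walls. Of 24 OP9 stromal and fibroblast markers, 22 were above background. Of these 22, 2 were at least 2-fold lower (Col5a1 at -1.61 and Col1a1 at -1.49), against 1.08% of all genes, and 0 were higher. Below 0 lay 13 of the 22, against 46.6% of all genes. Col3a1 had -0.79 and Mgp 0.75, and 7 of the 22 were at least 2-fold lower and 2 higher in the authors' deposited table, against 4.02% and 2.01% of all genes. Their summed normalized signal was 8778 in gene-trapped and 9078 in revertant cells, or 4501 in gene-trapped and 5737 in revertant cells without Fn1, the brightest. Dcn was not above background on either array. The offset of 50 is part of each gene's normalized signal, which draws the sums of dim genes on both arrays closer together, here and in the lists that follow. With the local background subtracted Col1a1 (-1.26) and Col5a1 (-1.20) stayed past 2-fold, whereas Col3a1 had -0.11 and Mgp 0.13. Of 8 endothelial markers, 7 were above background and all 7 lay below 0, against 46.6% of all genes, with a median of -0.57. Flt1 at -1.53, Tek at -1.32 and Pecam1 at -1.27 were at least 2-fold lower, against 1.08% of all genes, and the sum was 841 in gene-trapped and 1924 in revertant cells. Of 7 measured hematopoietic markers all 7 lay below 0, against 46.6% of all genes, with a median of -0.69. Of these 7, 1 was at least 2-fold lower, Epor at -1.09, against 1.08% of all genes. Gata1 had -0.77, Itga2b -0.72 and Tal1 -0.69, and 4 of the 7 were at least 2-fold lower in the authors' deposited table, against 4.02% of all genes. The sum was 617 in gene-trapped and 964 in revertant cells, with Ptprc not above background on either array. With the local background subtracted the median of the 7 endothelial markers was -0.32. Flt1 (-1.78) and Tek (-1.12) stayed past 2-fold there, and Pecam1 had -0.94. In the same setting the median of the 7 hematopoietic markers was -0.14, with Epor at -0.14 and 0 past 2-fold. Under 75th percentile scaling, which puts the median of all genes at 0.15, 5 of the 7 endothelial and 5 of the 7 hematopoietic markers lay below 0. Under median scaling 5 of the 7 endothelial and all 7 hematopoietic markers did. Of 8 cardiac progenitor markers 0 passed 2-fold on the normalized scale, with sums of 927 in gene-trapped and 1208 in revertant cells. Without Smarcd3, the brightest, these sums were 639 in gene-trapped and 711 in revertant cells. Nkx2-5 and Mef2c of that list had no probe and were not measured. The part of these markers' cells in the differences of Tnnt2, Tnni1, Tnnt3 and Acta2 was not tested.

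Subtracting the local background that the scanner read around each spot changed the differences of Tnnt2, Tnni1 and Tnnt3 by more than that of Acta2. At Tnnt3 this background was 33.9 in gene-trapped and 128 in revertant cells, which is 94.7% of the spot signal in gene-trapped and 98.6% in revertant cells. At Tnni1 it was 63.6 in gene-trapped and 300.2 in revertant cells, or 73.1% and 95.1% of the spot on those arrays. At Tnnt2 it was 40.2 in gene-trapped and 605 in revertant cells, or 32.6% and 64.9% of the spot on those arrays. With that column subtracted the log2 difference of Tnni1 turned to 0.14, that of Tnnt3 was -0.04 in place of -1.04, and that of Tnnt2 was -1.47 in place of -2.37. Acta2 had -1.31, against -1.30 without the subtraction, and the column held 247 in gene-trapped and 1350 in revertant cells at its spot.

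**Figure D5:**
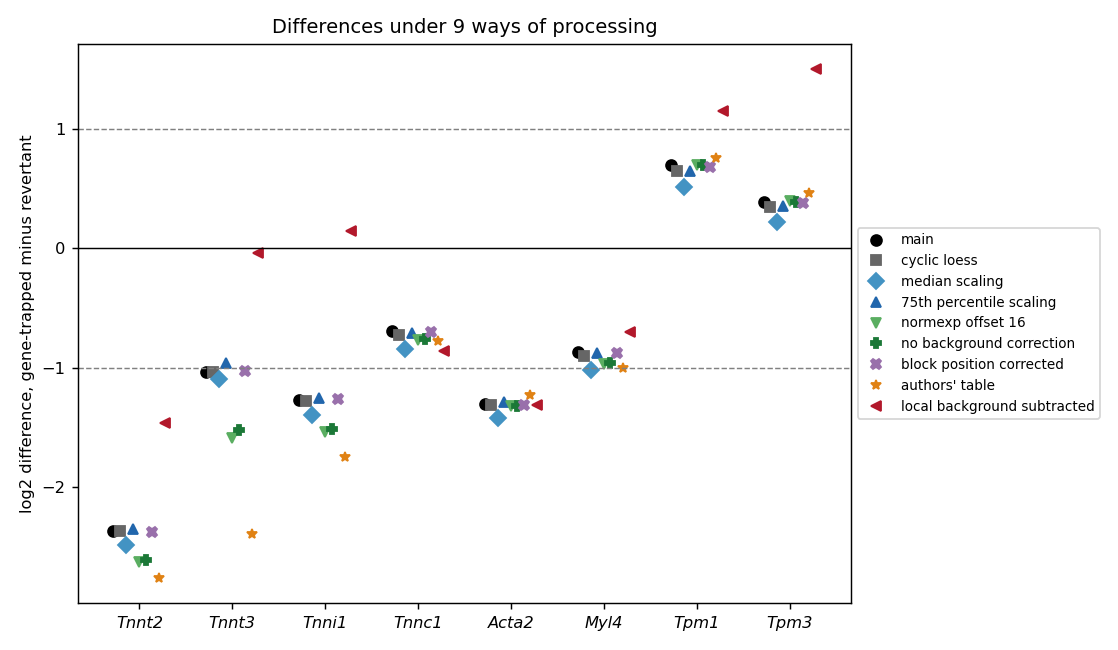
Log2 difference (gene-trapped minus revertant, y axis) of 8 contractile genes under the main processing and 8 other ways of processing, each with its own symbol, and dashed lines at 2-fold. Tnnt2 and Acta2 stay below the lower line throughout, while Tnni1 and Tnnt3 lie near 0 where the local background was subtracted.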

How the data were processed

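Per the labels' protocols, amplified RNA was labelled with Cy5 by amino allyl coupling for TORAY arrays. Each deposited scanner file gives spot medians as linear intensity, joined over 3 gains by least squares per the file headers. The authors' deposited table is also linear intensity: set against the scanner values it is the spot less about the blank mean, scaled to a median of 25 in each column, running the same way as the spots. Why some of its cells are empty is not known, and no label or file header names the scanner.

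Spots were corrected with normexp (offset 50, all spots) in limma 3.58.1 (R 4.3.3), and control spots and 2 flagged spots were left out. Arrays were then quantile-normalized on linear intensity, and log2 was taken afterwards. The local background column was not subtracted. This gave 23471 probes, of which 16629 carry a gene symbol. Summaries used Python 3.11.15, pandas 2.3.3 and numpy 2.4.6. Calls are a fixed size of at least 2-fold between 1 array per group, with no test, and the number of arrays limits the precision. Every member is named; of each comparison list up to 4 genes with the largest differences are named, besides genes at background and factors tied to a motif. Lists hold symbols as annotated, some of them old, matched through RefSeq synonyms (GRCm38.p6). The members and lists were chosen with earlier results of these data known. The alternatives were median and 75th percentile scaling, subtraction of the local background, correction for block position, offset 16, no background correction, cyclic loess, a stricter filter (5 SD), no filter, averaging over a gene's probes and the authors' table.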

Additional observations from a re-analysis of the deposited data

Results flagged for a closer look

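The local background column, which the comparison did not use, held signal at spots of contractile genes. Its median over the 34 genes above background was 47.6 on the gene-trapped array and 134 on the revertant array, against 15.6 and 14.2 at blank spots. Over all 23471 probes the column followed spot brightness, with log2 correlations of 0.96 on the gene-trapped and 0.97 on the revertant array, points of 1 array sharing its print and scan. Among the 34 genes it ranged from 1.13% (Cnn3) to 96.9% (Cnn2) of the spot on the gene-trapped array and from 1.43% (Cnn3) to 101% (Myl3) on the revertant array.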

How the results depend on the processing

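No paired analysis was possible because there is 1 array per group. The count of contractile genes at least 2-fold lower was 4 in the main setting and from 3 to 5 under the 11 alternatives: Tnnt3 dropped out under 75th percentile scaling (-0.96), Myl4 joined under median scaling and in the authors' table, and with the local background subtracted the 3 lower genes were Acta2, Tnnt2 and Cnn2 (-1.85). In that setting Tnni1 turned to 0.14, and the count of higher genes moved from 0 to 3 (Myl3 at 3.05, Tpm3 at 1.502 and Tpm1 at 1.15), while the share of all genes at least 2-fold higher was 1.99%, against 0.342% in the main setting. The cause was not tested. The other 10 alternatives gave 0 higher genes. The median of the members ran from -0.12 (authors' table, all genes 0.02) to 0.03 (75th percentile scaling, which puts the median of all genes at 0.15). Of the 34 genes 19 kept their sign under every alternative that gave a value, Tnnt2, Acta2, Tnnc1, Myl4 and Tpm1 among them. A change of filter leaves a gene's value as it is, as does averaging for a gene with 1 probe. Low signal over background limits the dim sarcomere genes.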

Other observations

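Relatives of the contractile genes whose symbols the rule did not take in were read after their symbols had been seen. Mylc2b, named Myl12b in RefSeq and a regulatory light chain of nonmuscle myosin, had raw signals of 1335 in gene-trapped and 1414 in revertant cells and a log2 difference of 0.15. The fast skeletal regulatory light chain gene Mylpf (gene-trapped 35.5, revertant 37.7) had 0.10, and Mylk, the kinase that phosphorylates smooth muscle light chains (gene-trapped 44.2, revertant 58.8), had -0.07. Alpha-actinin genes, whose products crosslink actin, had 0.29 (Actn1), -0.02 (Actn2, near the limit at 23.0 in gene-trapped and 27.1 in revertant cells), -0.03 (Actn3) and -0.20 (Actn4). None of these 7 genes was at least 2-fold apart.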
